A study of Mus musculus with 15 samples.

Results

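The genes described here are 10 immediate-early and stress genes, Fos, Fosb, Fosl1, Fosl2, Jun, Junb, Egr1, Atf3, Ier2 and Dusp1, chosen by name from a table of 18804 genes. RNA was sequenced from white adipocytes that had been differentiated in culture from ear mesenchymal stem cells of C57BL/6J mice, which carried no other allele in any group. Cells of the day 0 group stayed at 37°C, cells of the day 1 group were moved to 31°C on day 15 of differentiation, and cells of the day 12 group were moved on day 4. All were harvested on day 16, with 5 libraries per group and 15 in all, after induction with methylisobutylxanthine, dexamethasone, insulin and troglitazone and then regular feeding with medium that contained serum. The day 12 cells completed most of their differentiation at 31°C and the day 1 cells at 37°C, so time in the cool and stage at cooling cannot be told apart. The labels do not say if libraries are of separate mice or of dishes from 1 preparation, so p-values measure only the spread between these libraries, which may be technical.

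Immediate-early genes are transcribed within minutes of a stimulus such as serum, a growth factor or stress, from transcription factors already present in the cell, and their RNAs decay quickly. Proteins of the Fos family (Fos, Fosb, Fosl1 and Fosl2) pair with proteins of the Jun family (Jun and Junb among them) to form AP-1, a transcription factor that binds the AP-1 site in DNA. Egr1 is a zinc finger factor that binds GC-rich sites, Atf3 is a stress-induced factor of the ATF and CREB family that mostly represses, Ier2 is a nuclear protein of the early response, and Dusp1 is a phosphatase that switches off MAP kinases. Several of these genes are known in fat cells from the first hours of adipogenesis, when a hormonal stimulus sets off the program. The libraries here were made after a day or more at 31°C, so the first hours after the change of temperature were not sampled.

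RefSeq promoters of 300 bases ran from 250 bases before to 50 bases after the transcription start. Fosl1, Egr1 and Ier2 were left without one, and the other 7 of the 10 genes had theirs on GRCm38.p6. Of these, 4 are printed because their genes stand for the different courses seen in the counts: Fos (chr12:85473640-85473939, plus strand), Fosb (chr7:19309996-19310295, minus strand), Atf3 (chr1:191183284-191183583, minus strand) and Dusp1 (chr17:26508423-26508722, minus strand). All are written 5′ to 3′ along the gene, and capitals mark every match, on either strand, to the CRE half-site TGACG, the full cyclic AMP response element TGACGTCA (which holds 2 half-sites), the Egr site GCGNGGGCG and the TATA box TATAAA.
Fos: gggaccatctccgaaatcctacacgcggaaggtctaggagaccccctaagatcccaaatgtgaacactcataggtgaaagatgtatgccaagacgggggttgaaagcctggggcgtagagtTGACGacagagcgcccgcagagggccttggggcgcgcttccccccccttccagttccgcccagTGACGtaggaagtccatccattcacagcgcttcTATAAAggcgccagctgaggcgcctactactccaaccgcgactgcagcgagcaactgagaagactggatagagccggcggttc
Fosb: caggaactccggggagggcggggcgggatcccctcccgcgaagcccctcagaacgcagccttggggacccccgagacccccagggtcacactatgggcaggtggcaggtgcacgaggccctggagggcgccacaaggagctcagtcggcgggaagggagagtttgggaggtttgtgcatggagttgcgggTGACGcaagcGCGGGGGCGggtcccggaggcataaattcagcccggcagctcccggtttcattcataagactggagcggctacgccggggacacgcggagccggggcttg
Atf3: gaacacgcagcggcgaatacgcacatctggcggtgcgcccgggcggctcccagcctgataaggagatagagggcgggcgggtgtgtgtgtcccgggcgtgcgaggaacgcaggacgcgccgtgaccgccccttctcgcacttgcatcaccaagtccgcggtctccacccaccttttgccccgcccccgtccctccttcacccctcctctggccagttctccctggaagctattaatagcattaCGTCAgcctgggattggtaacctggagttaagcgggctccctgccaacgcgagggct
Dusp1: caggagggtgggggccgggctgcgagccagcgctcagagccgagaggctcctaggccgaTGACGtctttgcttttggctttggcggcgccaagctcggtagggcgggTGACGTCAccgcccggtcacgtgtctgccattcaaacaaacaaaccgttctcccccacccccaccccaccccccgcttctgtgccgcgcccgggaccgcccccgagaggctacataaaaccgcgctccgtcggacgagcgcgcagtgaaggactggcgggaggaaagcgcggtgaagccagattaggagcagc
The Fos promoter held the half-site at 2 places, at -129 to -125 and at -66 to -62 from the start, and a TATA box at -33 to -28. In Fosb, a half-site at -60 to -56 lay next to an Egr site at -50 to -42. The only full response element among the 7 promoters was that of Dusp1, at -143 to -136, which also had a separate half-site at -191 to -187. Atf3 had 1 half-site, read on the opposite strand, at -7 to -3. Of the promoters not printed, Fosl2 held an Egr site at -79 to -71, Junb held a half-site at -106 to -102 and TATAAA at 1 to 6, and Jun held no match. Among all 32851 promoters of this length, 20.8% held the half-site, 1.79% the full element, 5.55% the Egr site and 13.6% the TATA box. The AP-1 site TGANTCA, found in 7.81% of all promoters, and the CArG box, found in 1.63%, matched in 0 of the 7 windows. A match describes letters in the window and is not a binding site. Bases further than 250 before the start were not searched, so 0 matches do not speak to sites outside the window.

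The total count ranged from 64648178 to 133270973 per library, and 14293 genes passed the filter on low counts, among them all 10 genes described here. Levels are given as CPM, the count on a common library size after scaling of the libraries by TMM, and the count behind a single value ranged from 120 for Atf3 to 47449 for Fosl2. The response to the cool was visible in Cirbp and Rbm3, which encode RNA-binding proteins induced by cold and whose log2 fold changes against day 0 were 2.58 and 1.96 at day 1 and 1.91 and 2.76 at day 12. The summed level of 12 adipocyte markers was 6639 to 7253 CPM at day 0, 7840 to 8392 at day 1, above all other libraries, and 6604 to 7259 at day 12. Among them Adipoq, the adipocyte hormone adiponectin, was at 0.04 (log2) against day 0 at day 1 and at -1.24 at day 12. The sum of 10 progenitor and fibroblast markers was 19220 to 19720 CPM at day 0, 16240 to 16898 at day 1 and 13220 to 13688 at day 12, with 9 of the 10 past the filter. The 6 mesothelial markers, of which Upk3b and Wt1 were under the filter, had sums of 9.90 to 11.4 CPM at day 0, 12.7 to 15.0 at day 1 and 29.7 to 43.9 at day 12. For the 7 macrophage markers in the table, the sums were 26.4 to 33.8, 42.3 to 48.6 and 30.1 to 34.4 CPM, with the defining markers Ptprc and Itgam under the filter. Endothelial markers summed to 1.48 to 1.95 CPM at day 0, 2.29 to 3.71 at day 1 and 4.24 to 6.25 at day 12, with no overlap and with Cdh5 and Emcn under the filter. The 7 markers of muscle and cartilage summed to 255 to 339 CPM, with Myog and Ckm under it. The part of these marker shifts in the results below was not tested, and in bulk RNA fewer cells of a type and less RNA per cell cannot be told apart.

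The genes differed widely in abundance. Per kilobase of transcript, the scale on which genes can be set against each other, Junb was at 69.6 ± 1.5 CPM per kilobase (SD, n = 5) and Fosl2 at 56.1 ± 1.5 at day 0, above Fosl1 at 28.7 ± 2.1 and Jun at 25.8 ± 1.6. Ier2 at 10.4 ± 0.84, Egr1 at 7.87 ± 0.62 and Dusp1 at 6.51 ± 0.59 came next. Fos, which names the family, was at only 1.63 ± 0.22 CPM per kilobase, with Fosb at 1.10 ± 0.11 and Atf3 at 0.883 ± 0.20 in the last places. By day 12 Egr1 stood at 23.3 ± 1.7 CPM per kilobase, behind only Junb at 56.8 ± 2.4 and Fosl2 at 46.5 ± 0.35, and above Jun at 20.8 ± 1.4. The spread between libraries was largest for the 3 least abundant genes. The biological coefficient of variation from the fit was 16.3% for Atf3, 13.6% for Fosb and 10.0% for Fos, against 3.15% for Fosl2, 3.56% for Junb and a median of 5.20% over all genes tested.

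**Figure D1:**
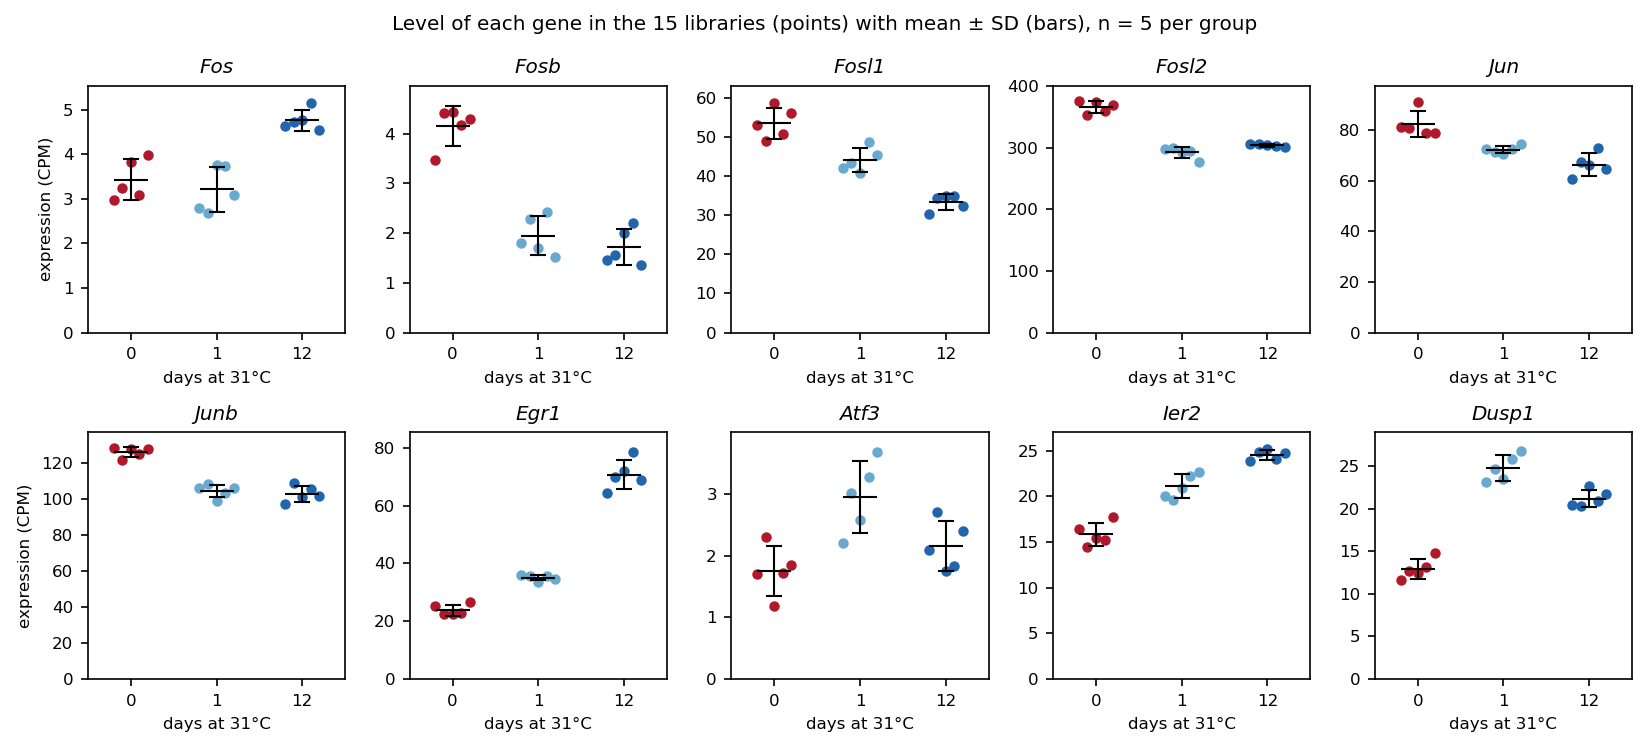
Level in CPM (vertical axes, each starting at 0) of the 10 genes in each of the 15 libraries, by days at 31°C (horizontal axes); points are libraries and bars the mean ± SD of 5. Egr1 goes from a mean of 23.9 to 35.1 and then 70.7 CPM, Fosb from 4.16 to 1.95 and 1.71, and Dusp1 is highest at day 1.

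The first question was which of the genes differed from 37°C after a day and after 12 days. A gene was called when its adjusted p in the quasi-likelihood test of edgeR was below 0.05 and its level differed by more than 1.5-fold. At day 1 against day 0, Atf3 and Dusp1 were called higher, 2 of 10, beside 7.71% of all genes tested, and Fosb was called lower, 1 of 10, beside 13.4%. At day 12 against day 0, Egr1, Dusp1 and Ier2 were called higher, 3 of 10 beside 13.0%, and Fosb and Fosl1 lower, 2 of 10 beside 16.2%. At day 12 against day 1, Egr1 alone was called higher, 1 of 10 beside 10.6%, and 0 of 10 were called lower beside 8.53%. In that last comparison 4 genes were higher and 4 were lower at an unadjusted p under 0.05 in edgeR, and DESeq2 also called 0 lower. The counts are small, and the genes called went both ways. The median log2 fold change of the 10 was -0.14 at day 1 and 0.02 at day 12, beside -0.01 and 0.01 for all genes tested.

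Of the 10 genes, 7 moved by less than 1.5-fold at day 1 and 5 at day 12. By adjusted p alone, 4 were higher and 5 lower at day 1, beside 35.3% and 36.2% of all genes tested, and day 12 again had 4 higher and 5 lower, beside 39.2% and 37.4%. Between day 12 and day 1, 3 were higher and 4 lower by adjusted p alone, beside 34.3% and 32.8%. The directions at day 12 depend on the scaling of the libraries for 4 of the 5 genes that were lower. When the libraries were scaled to the reference genes Hprt, Tbp, Gapdh and B2m, the median of all genes stood at 0.85 (log2) at day 12, and Fosl1, Fosl2, Jun and Junb turned from lower to higher. Relative to that median they were at -0.70, -0.28, -0.33 and -0.31, close to their values with TMM. With TMM, Gapdh itself was lower by -0.70 (log2) at day 12 and B2m by -2.12.

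**Figure D2:**
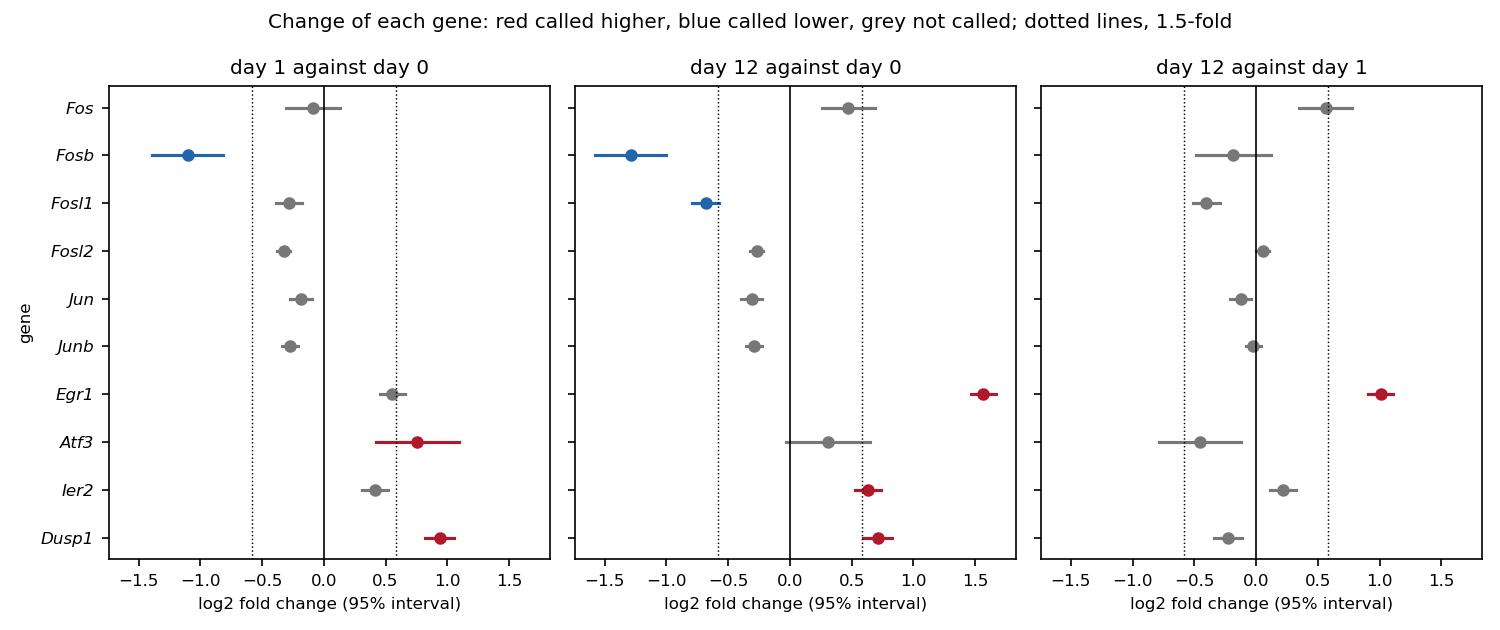
Log2 fold change (horizontal axes) of each gene (vertical axis) in the 3 comparisons, as a point with its 95% interval; red points were called higher, blue points lower, and dotted lines mark 1.5-fold. Egr1 lies at 0.55, 1.56 and 1.01, Fosb at -1.10, -1.29 and -0.19, and under scaling to the reference genes Fosl1, Fosl2, Jun and Junb turn to higher at day 12 against day 0.

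Fos (chr12:85473890-85477273, 4 exons) encodes the best known partner of Jun in AP-1, and at 3.43 ± 0.46 CPM at day 0 it was a low transcript. Its values were 2.98, 3.24, 3.84, 3.09 and 4.00 CPM at day 0, 2.80, 2.69, 3.75, 3.74 and 3.09 at day 1, and 4.63, 4.72, 4.77, 5.15 and 4.54 at day 12. The day 0 and day 1 libraries overlapped, while all 5 libraries of day 12 lay above the other 10. The log2 fold change was -0.09 (SE 0.11, adjusted p = 0.455) at day 1 and 0.47 (SE 0.10, adjusted p = 0.000214) at day 12, which is 1.39-fold and short of the limit. Between day 12 and day 1 it was 0.56 (SE 0.10, adjusted p = 4.63e-05), or 1.48-fold. That comparison crossed the 1.5-fold limit, at 0.62, without replicate 3 or without replicate 4 of day 1, and within the larger of 2 number series in the library titles (11 of the 15 libraries, from all 3 groups), where it was 0.64. It also crossed with the number series as a covariate (0.59). Scaling moved Fos past the limit too, to 0.67 at day 12 against day 0 and 0.74 against day 1 with total counts only, to 0.74 and 0.90 with Hprt and Tbp, and to 1.31 and 1.35 with the reference genes.

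Fosb (chr7:19302696-19310051, 4 exons) encodes a Fos protein whose splice form in the brain is known for its long life, and it was the gene that fell most. Its levels were 3.47, 4.41, 4.44, 4.17 and 4.30 CPM at day 0, 1.81, 2.29, 1.70, 2.43 and 1.52 at day 1, and 1.45, 1.55, 1.99, 2.20 and 1.36 at day 12. Every library at 31°C was below every library at 37°C, and the 2 groups at 31°C overlapped. The fall was 2.15-fold at day 1, with a log2 fold change of -1.10 (SE 0.14, adjusted p = 1.39e-07), and 2.44-fold at day 12, with -1.29 (SE 0.14, adjusted p = 9.59e-09). From day 1 to day 12 the difference was -0.19 (95% interval -0.49 to 0.12, adjusted p = 0.271), turning to 0.60 with the reference genes and to 0.15 with Hprt and Tbp. The call at day 12 was lost only under scaling to the reference genes, where the change was -0.46.

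Fosl1 (chr19:5447547-5455946, 4 exons), which encodes Fra-1, was lower at each step (higher at day 12 under scaling to the reference genes), with a count that is uncertain. Its levels were 53.2, 48.9, 58.6, 50.8 and 56.1 CPM at day 0, 42.0, 43.3, 40.8, 48.7 and 45.4 at day 1, and 30.3, 34.3, 35.0, 35.0 and 32.3 at day 12, with no overlap between groups. The change was -0.28 (SE 0.051, adjusted p = 3.37e-05) at day 1, under the limit, and -0.68 (SE 0.052, adjusted p = 1.72e-11), a fall of 1.61-fold, at day 12. In the annotation 62.4% of its exon bases lie opposite Ccdc85b, a gene on the other strand, and no source used here says if counting was by strand, so reads of the 2 genes cannot be told apart. Ccdc85b was at -0.0044 (log2, adjusted p = 0.942) at day 1 and at -0.57 (adjusted p = 2.74e-10) at day 12. The call of Fosl1 at day 12 was lost with total counts only, at -0.49, and with Hprt and Tbp alone as reference, at -0.42, and its value turned to 0.15 with all 4 reference genes.

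Fosl2 (chr5:32135801-32157842, 4 exons), which encodes Fra-2, was the most abundant member of the family and among the most even. It read 376, 353, 374, 360.0 and 369 CPM at day 0, 299, 299, 294, 294 and 278 at day 1, and 306, 307, 304, 303 and 301 at day 12. The 2 groups at 31°C both lay below day 0 without overlap, and they were close to each other. Against day 0 it differed by -0.32 (SE 0.026, adjusted p = 6.09e-11) at day 1 and by -0.27 (SE 0.026, adjusted p = 1.14e-09) at day 12, 1.25-fold and 1.21-fold and not called, and the day 12 value turned to 0.57 with the reference genes. Between day 12 and day 1 the difference was 0.05 (95% interval 0.00031 to 0.11, adjusted p = 0.0702), and it was called with the reference genes, at 0.84.

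Taken per kilobase, the shares of Fos and Fosl2 in the family rose by day 12 and those of Fosl1 and Fosb fell, as a description without a test. The level of Fosl2 itself was lower at day 12 with TMM (-0.27), so only its share rose. Fosl2 made up 64.1% ± 1.3 of Fos family transcripts at day 0, 63.6% ± 1.9 at day 1 and 69.3% ± 1.3 at day 12. Fosl1, with the uncertainty given above, made up 32.8% ± 1.1, 33.5% ± 1.8 and 26.7% ± 1.2. Fos went from 1.86% ± 0.20 to 2.16% ± 0.33 and 3.36% ± 0.13, and Fosb from 1.26% ± 0.14 to 0.728% ± 0.13 and 0.673% ± 0.13 (SD, n = 5). These shares do not depend on how libraries are scaled, since all 4 genes of a library share its scale. With TMM, the summed level of the 4 genes was 87.5 ± 3.5 CPM per kilobase at day 0, 70.5 ± 1.9 at day 1 and 67.1 ± 1.3 at day 12. Unlike the shares, this sum depends on the scaling. With the reference genes, Fosl1 and Fosl2, which make up most of it, turned to higher at day 12, at 0.15 and 0.57.

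**Figure D3:**
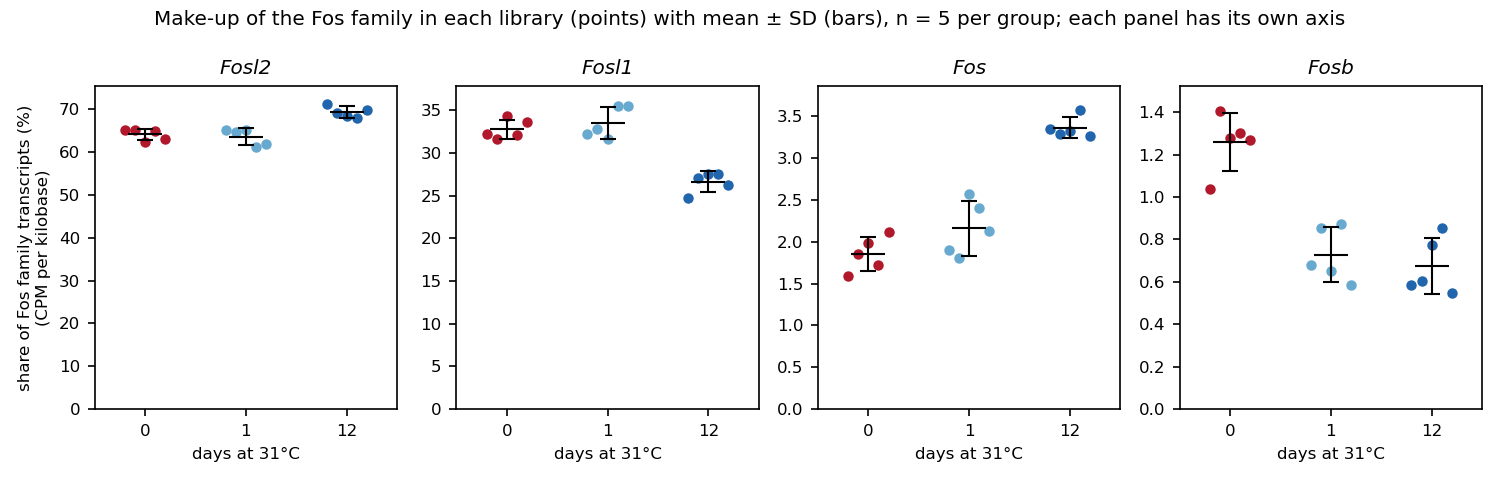
Share of each gene in the Fos family transcripts (vertical axes in percent of summed CPM per kilobase, each from 0) in the 15 libraries by days at 31°C (horizontal axes); points are libraries and bars the mean ± SD of 5. The Fos share lies between 3.27% and 3.58% at day 12, above the 2.58% of the highest day 1 library, and the Fosb share is at most 0.872% at 31°C against at least 1.04% at day 0.

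On the Jun side, both genes were lower at 31°C by small and tightly measured amounts, which turn to higher at day 12 under scaling to the reference genes. Jun (chr4:95049034-95052222, 1 exon) read 81.2, 80.5, 91.1, 78.9 and 78.9 CPM at day 0, 72.5, 71.3, 70.6, 72.5 and 74.2 at day 1, and 60.6, 67.1, 66.3, 72.8 and 64.5 at day 12. Junb (chr8:84976910-84978718, 1 exon) read 128, 122, 128, 125 and 127 CPM, then 106, 108, 98.6, 103 and 106, then 97.3, 109, 101, 106 and 102. Neither gene overlapped between 37°C and 31°C, and both overlapped between day 1 and day 12. The changes of Jun were -0.19 (SE 0.042, adjusted p = 0.00035) and -0.31 (SE 0.042, adjusted p = 3.40e-07) at days 1 and 12. Those of Junb, the Jun protein that is the weaker activator, were -0.27 (SE 0.031, adjusted p = 2.95e-08) and -0.29 (SE 0.031, adjusted p = 6.54e-09). Neither passed the 1.5-fold limit at either time. Jun made up 27.0% ± 1.1 of the summed Jun and Junb level per kilobase at day 0, 28.2% ± 0.62 at day 1 and 26.8% ± 0.90 at day 12. The annotation sets 7.28% of the exon bases of Jun opposite antisense Junos, but its entry for Junos (chr4:95075669-95156278) lies outside Jun. It is therefore uncertain if reads of Junos could be in the count.

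Egr1 showed the largest rise of the 10 genes. It lies at chr18:34861207-34864956 with 3 exons, and its protein is known to respond to growth factors and insulin. The libraries read 25.1, 22.4, 22.5, 22.8 and 26.6 CPM at day 0, 36.0, 35.6, 33.7, 35.8 and 34.5 at day 1, and 64.5, 70.0, 71.9, 78.4 and 68.9 at day 12. The 3 groups did not overlap, and the order was day 0, day 1, day 12. Against day 0 the difference was 0.55 (95% interval 0.45 to 0.66, adjusted p = 4.93e-10) at day 1, which is 1.47-fold and just short of the limit, and 1.56 (SE 0.049, adjusted p = 7.01e-19) at day 12, a rise of 2.96-fold. From day 1 to day 12 it rose 2.01-fold, by 1.01 (SE 0.049, adjusted p = 5.54e-15). The day 1 value passed the limit, at 0.60, without replicate 5 of day 0 and within the larger number series, and at 0.61 with the reference genes. All scalings run left the day 12 value above 1.5, at 1.76 with total counts only, 1.83 with Hprt and Tbp and 2.40 with the reference genes.

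Ier2 (chr8:84661331-84662852, 1 exon) took the same order at a smaller scale. Its values were 16.4, 14.4, 15.4, 15.3 and 17.7 CPM at day 0, 20.1, 19.6, 20.9, 22.2 and 22.7 at day 1, and 23.8, 24.8, 25.2, 24.1 and 24.7 at day 12. No library of one group reached into another. The change against day 0 was 0.41 (SE 0.051, adjusted p = 9.80e-08) at day 1, 1.33-fold and not called, and 0.63 (SE 0.050, adjusted p = 4.10e-11) at day 12, a rise of 1.55-fold that stands just over the limit. Day 12 was above day 1 by 0.22 (SE 0.050, adjusted p = 0.000535). With the 1.5-fold limit kept, this difference was called only with the reference genes, at 1.01.

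Dusp1 (chr17:26505590-26508519, 4 exons) rose at both times and was highest at day 1. The values were 11.7, 12.7, 12.5, 13.2 and 14.8 CPM at day 0, 23.1, 24.7, 23.5, 25.8 and 26.8 at day 1, and 20.4, 20.3, 22.6, 20.9 and 21.7 at day 12, again without overlap. The rise was 1.91-fold at day 1 (log2 fold change 0.94, SE 0.055, adjusted p = 2.34e-13) and 1.64-fold at day 12 (0.71, SE 0.056, adjusted p = 2.88e-11). Day 12 stood below day 1 by a log2 difference of -0.23 (SE 0.054, adjusted p = 0.00076), which turned to higher with the reference genes (0.56) and with Hprt and Tbp alone (0.11).

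Atf3 (chr1:191170296-191183340, 4 exons) was the most variable of the genes, at 120 to 376 counts per library. The levels were 1.71, 2.30, 1.18, 1.72 and 1.86 CPM at day 0, 2.20, 3.01, 2.59, 3.28 and 3.68 at day 1, and 2.09, 2.71, 1.75, 1.84 and 2.40 at day 12. All 3 groups overlapped, with replicate 2 the highest library of day 0. Atf3 rose 1.69-fold at day 1, by 0.76 (SE 0.16, adjusted p = 0.000197). Within the larger number series the value was 0.59 (SE 0.20, adjusted p = 0.0117), which barely holds the call. At day 12 it differed from day 0 by 0.31 (95% interval -0.033 to 0.64, adjusted p = 0.0935), which was called with the reference genes, at 1.15. It differed from day 1 by -0.45 (SE 0.16, adjusted p = 0.016), which turned to 0.34 with the reference genes. In the larger series the adjusted p of the latter was 0.185.

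Genes around these factors were then read from 6 lists, by counts and medians only, to be set beside the 7.71% of all genes tested that were called higher and 13.4% lower at day 1, and the 13.0% and 16.2% at day 12. Of 17 other AP-1 and ATF family factors, day 1 had 0 called higher and 3 lower (17.6%), and day 12 had 0 higher and 5 lower (29.4%), with medians of -0.14 and -0.16. At an unadjusted p under 0.05, edgeR had 3 higher at day 1 and 2 at day 12, and DESeq2 called 0 higher at either. By adjusted p alone, a stricter limit, 35.3% of all genes tested were higher at day 1 and 39.2% at day 12. These counts are therefore no excess. Atf5, a stress-induced ATF factor, fell at day 1 (-0.84, SE 0.029), from 113 ± 3.7 to 63.3 ± 1.5 CPM, and stood at 105 ± 3.1 CPM at day 12. Maf fell at day 1 (-0.74, SE 0.061). At day 12 Maff fell (-0.63, SE 0.058), though it turned to higher with the reference genes, at 0.20, and the call was lost with total counts only (-0.44) and with Hprt and Tbp (-0.37). Jund, the remaining Jun gene and named with its values already seen, was at 0.36 (SE 0.047) at day 1 and -0.04 (SE 0.048) at day 12 and was not called, and 52.6% of its exon bases lie opposite another gene.

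Of 37 other immediate-early genes tested, day 1 had 4 higher (10.8%) and 1 lower (2.7%), and day 12 had 6 higher (16.2%) and 8 lower (21.6%). Nr4a1, an orphan nuclear receptor, rose 2.23-fold at day 1 from 29.7 ± 7.3 to 66.2 ± 8.6 CPM and was at 38.0 ± 3.2 CPM at day 12, while its relative Nr4a2 fell at day 12 (-1.17, SE 0.082, call lost with the reference genes at -0.33). Egr3, a relative of Egr1, rose at day 12 (1.86, SE 0.17) from 0.865 ± 0.19 to 3.16 ± 0.49 CPM, and was at 0.853 ± 0.18 CPM at day 1. Sgk1, a kinase that responds to serum and glucocorticoids, rose at both times (0.63, SE 0.037, and 1.09, SE 0.037), with the first call lost with Hprt and Tbp (0.55) and under the filter at 10 CPM (0.58). Gadd45g fell at day 12 (-1.39, SE 0.040, call lost with the reference genes at -0.55). Hes1, a repressor downstream of Notch, fell at day 1 (-0.64, SE 0.10). It was also called lower at day 12 (-0.93, SE 0.11), going from 6.39 ± 0.76 CPM at day 0 to 3.35 ± 0.24. Without replicate 3 of day 1 the day 1 value of Hes1 was -0.57, and without replicate 5 of day 1 it was -0.58, both under the limit.

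Upstream of the immediate-early genes, 27 genes of the MAP kinase cascade and of serum response were tested, while Hras and the Rps6ka kinases of the list were not analysed here. At day 1, 2 were higher and 2 lower (7.41% each), and at day 12, 2 were higher (7.41%) and 0 lower. At an unadjusted p under 0.05 in edgeR 5 were lower at day 12, and DESeq2 called 0 lower. These 5 of 27 stand beside 37.4% of all genes tested that were lower at day 12 by adjusted p alone. Mapk12, a p38 kinase, rose at both times (1.26, SE 0.12, and 1.19, SE 0.12). Map2k4, which activates JNK and p38, rose at day 1 (0.62, SE 0.031), a call lost with Hprt and Tbp (0.55) and under the filter at 10 CPM (0.58). Elk3 rose at day 12 (0.63, SE 0.032). Creb1, the factor that binds the cyclic AMP response element, fell at day 1 (-0.83, SE 0.044), from 34.4 ± 1.0 to 19.3 ± 1.4 CPM. Crem, its relative, fell at day 1 (-0.60, SE 0.073), a call that was lost without replicate 4 or 5 of day 0 or replicate 3 of day 1, with total counts only (-0.58), with the reference genes (-0.55) and within the larger number series (-0.55).

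Among 18 MAP kinase phosphatases and feedback inhibitors, the list nearest to Dusp1, day 1 had 2 higher (11.1%) and 1 lower (5.56%) and day 12 had 3 higher (16.7%) and 0 lower, with medians of 0.06 and 0.31. At day 12, 4 were lower at an unadjusted p under 0.05 in edgeR, and DESeq2 called 0 lower. These 4 of 18 stand beside 37.4% of all genes tested that were lower at day 12 by adjusted p alone. Dusp10, which acts on JNK and p38, rose at day 1 (0.79, SE 0.067). Dusp14 rose at both times (0.63, SE 0.10, and 1.16, SE 0.10), with the first call lost without replicate 3 of day 0 or replicate 5 of day 1, or with Hprt and Tbp (0.56). Spred3, an inhibitor of the Ras pathway, rose at day 12 (0.63, SE 0.054). Nab2, which binds and represses Egr1, fell at day 1 (-0.78, SE 0.038), from 74.8 ± 0.81 to 43.4 ± 1.7 CPM, and stood at 62.0 ± 4.1 CPM at day 12, though 35.0% of its exon bases lie opposite other genes.

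Known AP-1 and Egr1 targets went both ways: of 27 tested, day 1 had 3 higher and 3 lower (11.1% each), and day 12 had 6 higher (22.2%) and 5 lower (18.5%), with medians of -0.05 and -0.14. Plaur, the urokinase receptor, rose at both times (1.06, SE 0.057, and 1.44, SE 0.056), from 10.7 ± 0.79 to 22.3 ± 1.4 and 29.2 ± 2.0 CPM. Hmox1, the heme oxygenase that also answers to oxidative stress, rose at day 1 (0.97, SE 0.043), from 567 ± 47 to 1114 ± 51 CPM. At day 12 Hmox1 was called lower than at day 0 (-0.68, SE 0.043), at 355 ± 8.8 CPM. Ccl2, a chemokine, fell at day 1 (-1.32, SE 0.050) from 195 ± 17 to 77.8 ± 3.8 CPM, and stood at 176 ± 9.4 CPM at day 12. Mmp13, a collagenase, fell at day 1 (-0.86, SE 0.090). Hmga1 rose at day 12 (1.33, SE 0.093), and F3, the tissue factor that starts blood clotting, fell at day 12 (-0.98, SE 0.030), a call that was lost with the reference genes, at -0.14.

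Around Atf3, 14 partners in the stress response were tested, of which day 1 had 1 higher (7.14%) and 4 lower (28.6%), and day 12 had 1 higher (7.14%) and 6 lower (42.9%), with medians of -0.21 and -0.41. Atf4, the main factor of the integrated stress response and an activator of Atf3, rose at day 1 (0.72, SE 0.031), from 132 ± 5.7 to 218 ± 7.4 CPM. Ddit3, which encodes the factor CHOP in the same response, fell at both times (-0.81, SE 0.046, and -1.20, SE 0.047), the second call being lost with the reference genes at -0.36. Its exons are shared with another annotated gene on the same strand, so its count is uncertain. Hsph1, a heat shock protein, fell at both times (-1.74, SE 0.048, and -1.74, SE 0.048), from 95.7 ± 7.0 to 28.6 ± 1.9 and 28.6 ± 1.1 CPM. Hspa1b rose at day 12 (0.80, SE 0.067), while reads of it cannot be told from those of its near-identical copy Hspa1a, which was called lower with TMM.

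**Figure D4:**
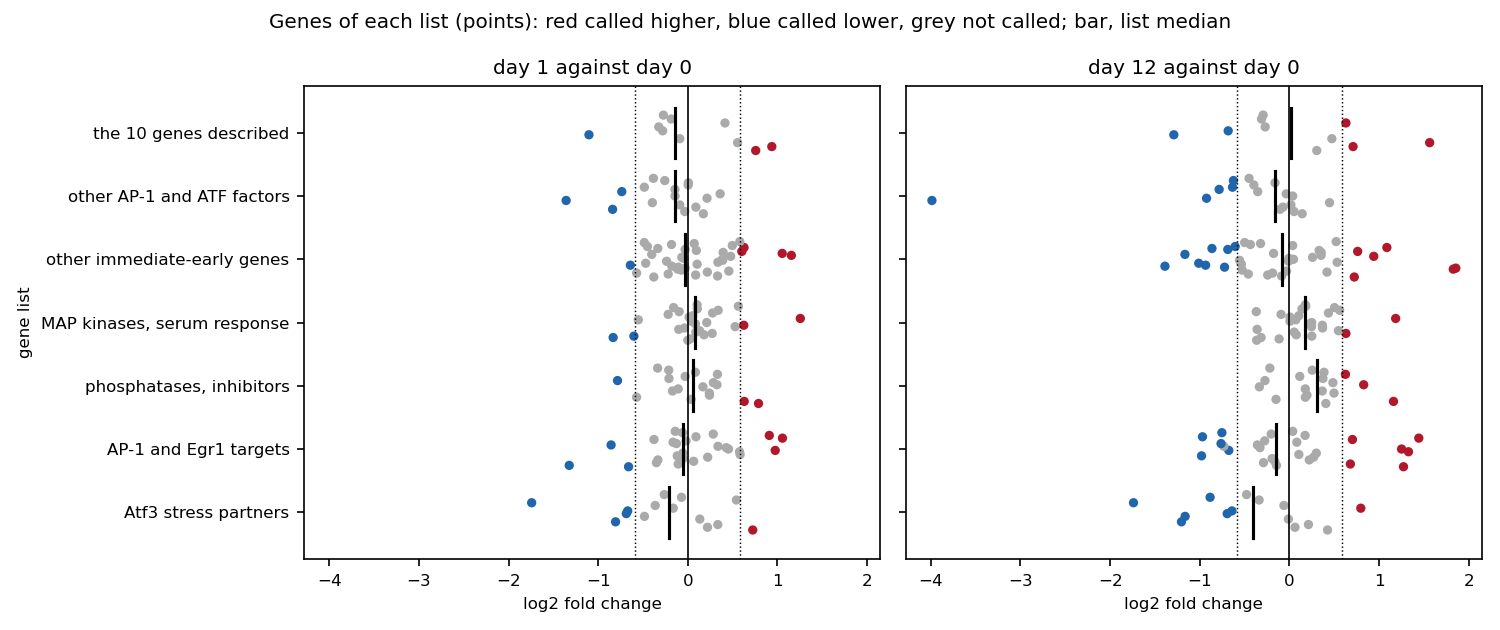
Log2 fold change (horizontal axes) of every tested gene of the 7 lists (vertical axis) at day 1 and day 12 against day 0; red points were called higher, blue points lower, and a black bar marks each list's median, with the height of a point within its list carrying no meaning. The medians span -0.21 to 0.08 at day 1 and -0.41 to 0.31 at day 12, and the far left point is Batf2, named after its values were seen, whose mean went from 0.605 CPM at day 0 to 0.0347 CPM at day 12, a level of about 3 counts at which its place is no measure of fold.

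The genes whose pattern was most like that of a member were found by the root mean square difference of centred log2 CPM over the 15 libraries, among 12122 other genes whose mean was 1 CPM or more. For Egr1 they were Adamts7 (0.0911), Kpna2 (0.122) and Serpina3f (0.123). Adamts7, a metalloprotease, went from 8.31 ± 0.63 to 11.5 ± 0.48 and 25.3 ± 2.1 CPM. For Fos they were Ttc8 (0.121), Slc41a2 (0.136) and Cmya5 (0.137), and for Jun Fam134a (0.0470), Dab2 (0.0540) and Myadm (0.0599). For Fosl1 they were BC017158 (0.0663), Jmjd6 (0.0688) and Lpin3 (0.0700). Atf3 had the least close neighbours, Flywch2 (0.205), Zfp28 (0.221) and Klhdc4 (0.223). None of these values has a test.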

How the data were processed

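RNA of 15 libraries was sequenced on an Illumina HiSeq. Per the labels and the study's methods, the authors aligned reads to mm10 with TopHat2 2.0.13 and Bowtie2 2.2.1, counted reads per gene with HTSeq and deposited those raw counts, the values used here. The strandedness and annotation of the counting were not given in the sources used here. The authors' regularized log values and their DESeq2 comparisons (log2 fold changes and p-values for each time against day 0) were not used.

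Genes were filtered with filterByExpr (minimum count 10), libraries were scaled by TMM (factors 0.946 to 1.09), and all 15 entered one fit by quasi-likelihood (glmQLFit and glmQLFTest of edgeR 4.0.16, R 4.3.3). Benjamini-Hochberg adjustment covered all 14293 genes tested. The code was tested on simulated data. SE is the size of the log2 fold change over the square root of F. The 10 genes and all lists were chosen with earlier results of these data known. From each list, the 2 largest called increases and decreases per comparison with day 0, among those averaging 1 CPM or more, were named, beside Cirbp, Rbm3 and Adipoq as checks. For 5 of the 10 genes, 3 with the most similar pattern were named. Some genes picked by these rules are not reported here. Genes outside the rule were named after their values were seen. Exon overlaps and lengths came from the GENCODE annotation of GRCm38, the same build as mm10. A count of 3, the limit that 0 counts allow, equals 0.0225 to 0.0464 CPM, which covers counting error only. Alternatives were other scalings, filters and thresholds, DESeq2 1.42.0, a replicate block, the library number series in the titles and each library left out. Scaling to Hprt and Tbp alone was added after the data were seen.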

Additional observations from a re-analysis of the deposited data

Results flagged for a closer look

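In 3 of the 30 groups of 5 values, 1 library stood apart from the other 4 by Dixon's criterion, which chance does in about 1 of 20 groups. Fosb in replicate 1 of day 0 was at 3.47 CPM against 4.17 for the nearest library, Fosl2 in replicate 5 of day 1 at 277.8 against 294, and Jun in replicate 3 of day 0 at 91.1 against 81.2. The Egr1 effect at day 12 exceeded that at day 1 by 1.01 (log2, edgeR, adjusted p = 5.54e-15), the only one of the 10 genes called in that comparison.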

How the results depend on the processing

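For the 10 genes, 272 of the values recomputed under alternatives other than left-out libraries kept their direction and their side of the threshold, 29 passed it newly, 3 lost it and 17 turned direction. With each library left out in turn, 447 stayed and 3 passed newly. The cause of these changes was not tested, except that dropping the fold limit admits smaller changes and the stricter filter leaves fewer genes. The stricter filter (a mean of 10 CPM or more) left 8930 genes to test and removed Fos, Fosb and Atf3. Under it the 10 genes gave 1 higher and 0 lower at day 1 and 1 lower at day 12. All genes gave 419 and 745, 637 and 1051, and 413 and 485 in the 3 comparisons. Junb turned to 0.0054 at day 12 against day 1. Without the fold limit the 10 genes gave 4 higher and 5 lower at day 1, 5 lower after 12 days, and 3 higher and 4 lower between the cool groups, and all genes gave 5049 and 5177, 5608 and 5342, and 4908 and 4690.

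With total counts only, the 10 genes gave 1 lower at day 12, and 2982 of the 14293 genes tested were higher at day 12. At day 12 against day 1 the 10 genes gave 2 higher, and Jun (0.047) and Junb (0.15) turned. The median of all genes in that comparison was at 0.18 (log2). With the reference genes, the 10 genes gave 5 higher and 0 lower at day 12 and 7 higher at day 12 against day 1, and all genes gave 9713 higher and 643 lower at day 12 and 10200 and 255 at day 12 against day 1. Turned at day 12 were Fosl1 (0.15), Fosl2 (0.57), Jun (0.53), Junb (0.55) and Maff (0.20), and at day 12 against day 1 Fosb (0.60), Fosl1 (0.38), Jun (0.66), Junb (0.77), Atf3 (0.34) and Dusp1 (0.56). With Hprt and Tbp alone, the 10 genes gave 1 lower at day 12 and 2 higher at day 12 against day 1, all genes gave 3563 higher and 1509 lower at day 12 and 3529 and 622 at day 12 against day 1, and Fosb (0.15), Jun (0.21), Junb (0.31) and Dusp1 (0.11) turned in that comparison. The lower share of all genes called at day 12 was 55.6% under TMM, 35.9% by total counts, 6.21% with the reference genes and 29.8% with Hprt and Tbp. At day 12 against day 1 these shares were 44.7%, 27.3%, 2.44% and 15.0%, and at day 1 they were 63.5% under TMM and 72.8% with Hprt and Tbp. The median of all genes was at 0.21, 0.85 and 0.27 (log2) at day 12 under those 3 scalings.

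At day 12 against day 1, 2 of the 10 genes were higher with the library number series as a covariate and in its 11 larger-series libraries. With each library left out, 1 to 2 of the 10 genes were higher, beside 1473 to 1530 of all genes. The deviations of samples with the same replicate number were only weakly correlated (-0.0255 to 0.0436, 0 of 15 pairs over 0.1), although 10 of 15 libraries correlated best with their own number, a hint from the data and not the design. With the number as a replicate block, the 10 genes gave the counts of the unblocked fit in all 3 comparisons, 2 higher and 1 lower at day 1, 3 and 2 at day 12, and 1 and 0 between them, and all genes gave 1099 and 1912 at day 1. Atf3, Fosb and Fos rest on the fewest counts and had the largest spread between libraries, and the part of depth in that spread was not tested.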
